A study of Mus musculus with 6 samples.

Results

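The Cyp2b genes encode cytochromes P450 that oxidize drugs, steroids and other lipophilic compounds. They were taken here as every probe set annotated to Cyp2b9, Cyp2b10, Cyp2b13, Cyp2b19 or Cyp2b23. Of these 5 genes, 4 were found, with 6 of the 22690 probe sets on the array, and Cyp2b23 was not analysed here. Cyp2b10 had 3 probe sets and Cyp2b9, Cyp2b13 and Cyp2b19 had 1 each. All 6 were among the 14755 probe sets bright enough to be tested.

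Total RNA from the liver of Swiss-Webster mice, an outbred stock, was hybridized to 6 Affymetrix arrays in a study of Boswellia serrata, the tree that gives Indian frankincense resin. The control group, 2 arrays, came from mice on control diet. The fraction 1 group, 2 arrays, came from mice whose diet held 1% of a hexane fraction for 21 days, and the fraction 2 group, 2 arrays, from mice whose diet held 1% of a methanol fraction for 21 days. The labels give neither the sex nor the age of the mice, nor the time on control diet. Nothing in the labels says whether the 2 arrays of a group came from separate animals or pools, and any p-value therefore reflects the spread between these 6 arrays alone, which may be technical.

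Cyp2b10 is the classical target gene of CAR (Nr1i3), a nuclear receptor that pairs with RXR and binds an enhancer well upstream of the gene after exposure to phenobarbital and many other foreign compounds. PXR (Nr1i2), a related receptor, shares many of its targets. Cyp2b9 and Cyp2b13 are known as genes with higher expression in female than in male mouse liver, and Cyp2b19 as a P450 of the epidermis. A P450 needs electrons from NADPH-cytochrome P450 reductase or cytochrome b5, and a haem group whose synthesis begins with Alas1.

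The genes lie in 1 cluster on mouse chromosome 7, in the order Cyp2b10, Cyp2b13, Cyp2b9, Cyp2b23, Cyp2b19, with Cyp2b pseudogenes and other genes, Cyp2a4 among them, in between. RefSeq promoter sequences (GRCm38.p6) matched all 5 genes. A stretch just upstream of the start is printed for each gene because it shows how the promoter of the gene that changed most compares with its relatives. The capitals mark TTGCATAA, or TTGTATAA in its place:
Cyp2b10: aacagctgaagTTGCATAActgagtggaga
Cyp2b23: aacagctgaagTTGCATAActgagtggaga
Cyp2b19: aatagctggagTTGCATAAgtgagtaggag
Cyp2b9: aacagttggagTTGTATAAcctagtgggga
Cyp2b13: aacagttggagTTGTATAAcctagtgggga

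These stretches lie at chr7:25897589-25897618 on the plus strand for Cyp2b10, chr7:26686497-26686526 on the minus strand for Cyp2b23, and chr7:26757091-26757120 (plus) for Cyp2b19. Those of Cyp2b9 and Cyp2b13 lie at chr7:26173339-26173368 and chr7:26061425-26061454, both on the plus strand. The letters of Cyp2b10 and Cyp2b23 are identical over the 30 bases, and so are those of Cyp2b9 and Cyp2b13. TTGCATAA fits TTGCNNAA, a form of the site known for C/EBP factors, which are abundant in liver. On either strand, TTGCNNAA occurs in 9.56% of 32851 promoter windows of the same length. In Cyp2b9 and Cyp2b13 its only match lies elsewhere in the window.

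The 250 bases before the start of Cyp2b10, the member whose signal rose, are shown whole (chr7:25897408-25897657, plus strand), with TTGCATAA and the TATA-like CATAAA in capitals:
Cyp2b10: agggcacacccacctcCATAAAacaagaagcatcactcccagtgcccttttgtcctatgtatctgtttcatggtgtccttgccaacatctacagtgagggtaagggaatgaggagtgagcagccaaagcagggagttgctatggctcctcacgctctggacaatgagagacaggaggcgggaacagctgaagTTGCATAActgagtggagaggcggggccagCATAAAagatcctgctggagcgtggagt

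CATAAA occurs in 10.8% of all windows on either strand, and it was found in those of Cyp2b10, Cyp2b23 and Cyp2b19 but not in those of Cyp2b9 and Cyp2b13. The TATA box TATAAA was in none of the 5 windows and in 12.4% of all. The GC box GGGCGG was likewise absent, against 32.7% of all windows. AGTTCA, a nuclear receptor half-site, was in none of the 5 and in 11.8% of all. The half-site AGGTCA (14% of windows) was found in Cyp2b9, Cyp2b13, Cyp2b19 and Cyp2b23, and not in Cyp2b10. The paired form DR4, 2 copies of AGNTCA in the same direction with 4 bases between them, was in none of the 5 and in 0.103% of all windows. These are letter matches in a short window, and the CAR enhancer of Cyp2b10 lies further upstream than the bases printed. Over 250 upstream bases Cyp2b9 and Cyp2b13 were 99.2% identical. Cyp2b10 had 182 identical bases in 260 aligned columns with either of them, 180 in 273 with Cyp2b19 and 180 in 289 with Cyp2b23. The columns include gaps, and the windows are not in step. The stretch printed for each gene begins at -69 in Cyp2b10, -70 in Cyp2b9 and Cyp2b13, -51 in Cyp2b19 and -96 in Cyp2b23. The shares of 70%, 65.9% and 62.3% thus depend on where each window starts and do not rank the relatives by similarity.

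Array-wide facts that bear on the values are few. Median signals ran from 139.3 to 167.2 array units, the scale of the deposited intensities. Control replicate 1 and fraction 2 replicate a were scanned in a second batch, so fraction 1 can be compared within scan batch 1 alone. As a measure of RNA integrity, actin 3'/5' signal ratios were 2.13 to 2.64 apart from control replicate 2, at 3.87. The 6 tested hepatocyte markers had no called change in any comparison. Their median change was -0.25 after fraction 1 and -0.43 after fraction 2, beside -0.03 and -0.05 for all genes. Their summed signal was 130360.1 and 151556.2 in control, 126086.5 and 113507.6 after fraction 1, and 107832.8 and 102145.2 after fraction 2. Of red blood cell markers the only one tested, Alas2, fell after fraction 1, from 2243.8 and 2609.9 in control to 793.0 and 723.3. The summed signal of 3 pancreatic acinar markers ran from 5886.5 in fraction 1 replicate a to 19367.2 in fraction 2 replicate a, with fraction 1 replicate b at 18735.1 and none called. The part of these cells in the results was not tested. The difference of scan batch 2 from batch 1, taken once within control and once within fraction 2, correlated across probe sets at r = 0.296, and the fit as reported holds no term for the batch. Both fractions were compared with the same 2 control arrays, so the comparisons with control are not independent of each other. In bulk liver, fewer cells of a type and less RNA per cell cannot be told apart.

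Cyp2b10 was higher after both fractions. The probe set 1425645_s_at read 282.9 and 508.9 array units in control, 6082.7 and 8063.1 after fraction 1, and 2885.5 and 2712.5 after fraction 2. All 4 treated arrays lay above both control arrays, and both fraction 1 arrays lay above both fraction 2 arrays. Group means were 396 ± 160, 7073 ± 1400 and 2799 ± 122 (SD, n = 2).

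A second probe set of Cyp2b10, 1422257_s_at, read 177.6 and 557.3 in control, 4476.2 and 6934.8 after fraction 1, and 2549.3 and 2276.5 after fraction 2. The other one, 1451787_at, read 340.2 and 503.3 in control, 3826.9 and 6478.5 after fraction 1, and 2205.4 and 1702.7 after fraction 2. The order of the groups was the same for the 3 probe sets, with no overlap. Within each of them control replicate 1 was the lowest array and fraction 1 replicate b the highest. The suffix _s_at marks probes that can match several related transcripts, and only 1451787_at was not of that type. Over the 6 arrays the 3 probe sets correlated with each other at Pearson's r of 0.982 to 0.992 on log2 signals, a description of arrays that share their labelling and scaling.

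**Figure D1:**
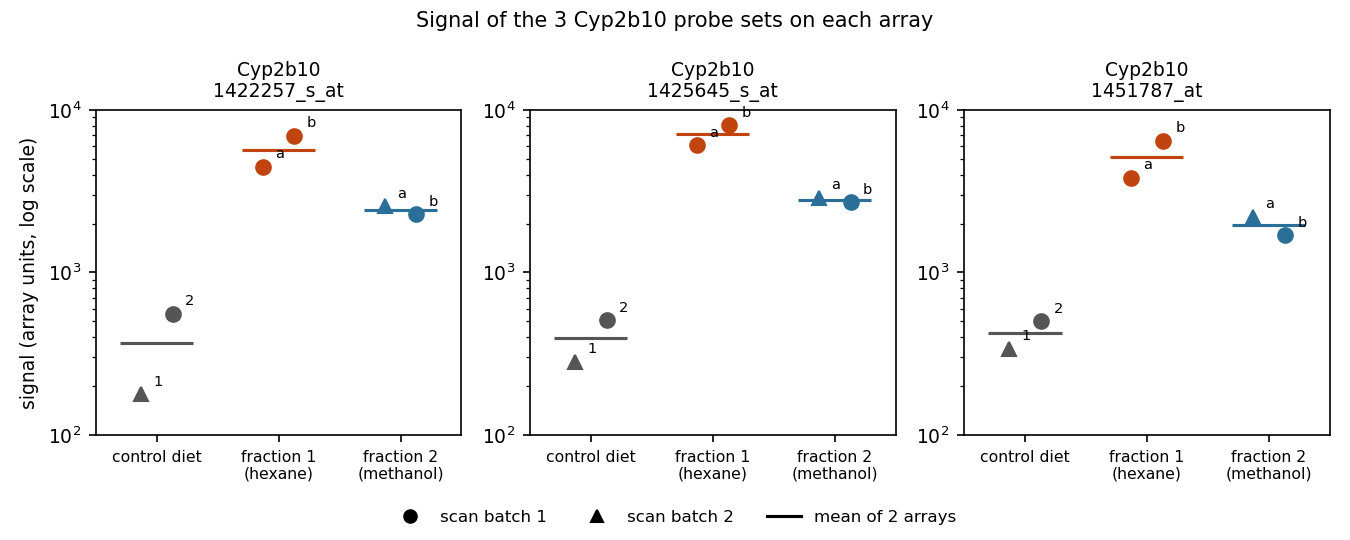
Signal of the 3 Cyp2b10 probe sets on each array, in array units on a log axis, by diet group, with replicate names beside the points, a line at the mean of 2 arrays, and triangles for scan batch 2. Control arrays lie between 177.6 and 557.3, fraction 2 arrays between 1702.7 and 2885.5 and fraction 1 arrays between 3826.9 and 8063.1.

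After fraction 1, 1425645_s_at rose by 4.15 ± 0.27 (SE) on the log2 scale of signal plus 16, or 17.7-fold (95% interval 3.53 to 4.77; adjusted p = 5.54e-04 with limma). Only 3 of 14755 probe sets had a larger increase. The change was 4.07 ± 0.44 for 1422257_s_at (adjusted p = 0.00916), or 16.8-fold, and 3.54 ± 0.29 for 1451787_at (adjusted p = 0.00178), or 11.6-fold. Thus 3 of the 6 Cyp2b probe sets passed, all of Cyp2b10, where 0.712% of all tested probe sets passed in either direction. Within scan batch 1, against control replicate 2 alone, the changes were 3.74, 3.28 and 3.27 in that order. The call of 1422257_s_at was lost without fraction 1 replicate b (adjusted p = 0.0804) and without the variance trend (adjusted p = 0.0961), while the other 2 kept theirs in 17 of 17 alternatives.

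After fraction 2, 1425645_s_at rose by 2.83 ± 0.27 (95% interval 2.21 to 3.45; adjusted p = 0.00918). The call held in 13 of 17 alternatives and was lost, among others, without fraction 2 replicate a (adjusted p = 0.0947) or b (adjusted p = 0.106). The probe set 1451787_at rose by 2.18 ± 0.29 (adjusted p = 0.0488), a call near the threshold that held in 5 of 17 alternatives. It was lost without either control array or either fraction 2 array, with adjusted p from 0.0688 to 0.394, and when the fit held a block for the scan batch (adjusted p = 0.0562) or for the lot of the chips (adjusted p = 0.166). The change of 1422257_s_at was 2.86 ± 0.44 and did not pass (95% interval 1.85 to 3.87; adjusted p = 0.103). It passed without control replicate 1 (adjusted p = 0.0411) or 2 (adjusted p = 0.00484). In all, 2 of 6 Cyp2b probe sets passed, beside 0.108% of all tested probe sets. Scan batches 1 and 2 gave 2.38 and 3.28 for 1425645_s_at, 1.73 and 2.64 for 1451787_at, and 2.00 and 3.73 for 1422257_s_at, each from a single pair of arrays.

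The fractions themselves were set against each other for Cyp2b10. Fraction 1 exceeded fraction 2 by 1.32 ± 0.27 for 1425645_s_at (95% interval 0.70 to 1.94; adjusted p = 0.238), by 1.20 ± 0.44 for 1422257_s_at (0.19 to 2.22; adjusted p = 0.555) and by 1.35 ± 0.29 for 1451787_at (0.69 to 2.02; adjusted p = 0.279). None of the 6 Cyp2b probe sets passed in this comparison, beside 0.0136% of all. At an unadjusted p under 0.05, 3 of the 6 and 1187 of all tested probe sets passed. The intervals of the 3 Cyp2b10 probe sets, which are not adjusted for the number of tests, lay above 0. Within scan batch 1 the differences were 1.36, 1.29 and 1.54 in that order. The 1% dose and the 21 days were the same for both fractions.

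Cyp2b9, a female-predominant steroid-hydroxylating P450 of mouse liver, was the other member with a signal well above the array medians. Its probe set 1419590_at read 980.3 and 1449.5 in control, 1984.6 and 1336.1 after fraction 1, and 1141.2 and 2201.7 after fraction 2. The 3 groups overlapped. Group means were 1215 ± 332, 1660 ± 459 and 1671 ± 750 (SD, n = 2). The change was 0.44 ± 0.34 after fraction 1 (95% interval -0.33 to 1.22; adjusted p = 0.663) and 0.41 after fraction 2 (-0.37 to 1.18; adjusted p = 0.819). Between the fractions it was 0.04 (-0.74 to 0.81; adjusted p = 0.982), and neither fraction's interval excluded a doubling.

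The lowest Cyp2b9 signals were those of the 2 arrays of scan batch 2, control replicate 1 and fraction 2 replicate a. These arrays also held the lowest signals of the brightest probe set of Xist, the RNA that coats the inactive X chromosome, with 131.8 and 95.6 against 179.3 to 267.5. They had the highest signals of the Y-linked Eif2s3y, with 368.8 and 442.8 against 169.8 to 313.0. The other Y-linked probe sets tested did not follow this order: Kdm5d read 110.5 and 100.9 against 105.6 to 131.8, and the Uty probe sets 119.3 and 113.1 against 56.9 to 113.7, and 75.8 and 141.2 against 78.1 to 126.8. None of the 4 probe sets of Xist and Kdm5d too dim to be tested had its 2 lowest or its 2 highest signals in these arrays. Over all arrays the dim Xist probe sets read 1.8 to 56.0. The brightest Xist probe set read 95.6 to 267.5, beside array medians of 139.3 to 167.2, so its order rests on signals around the medians. Eif2s3y read at least 169.8 on every array. Whether the arrays differ in the sex of the mice was not tested. The part of scan batch and of these genes in the Cyp2b9 values was not tested. Within batch 1 the Cyp2b9 change was 0.17 after fraction 1 and 0.60 after fraction 2, and within batch 2 it was 0.22 after fraction 2.

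Cyp2b13, whose promoter letters nearly match those of Cyp2b9, was dim. Its probe set 1449479_at read 59.3 and 126.5 in control, 22.9 and 98.8 after fraction 1, and 73.2 and 240.4 after fraction 2. The 3 groups overlapped. Only 2 of the 6 arrays reached the 40th percentile of their array, and the highest array was fraction 2 replicate b, which was also the highest for Cyp2b9. The change was -0.63 ± 0.69 after fraction 1 (95% interval -2.21 to 0.94; adjusted p = 0.782) and 0.55 after fraction 2 (-1.03 to 2.12; adjusted p = 0.871). Between the fractions it was -1.18 (-2.75 to 0.39; adjusted p = 0.674). On the fold scale these intervals ran from 0.217 to 1.92 after fraction 1 and from 0.491 to 4.34 after fraction 2. Between the fractions the interval ran from 0.149 to 1.31. A fall of several fold after fraction 1, or a rise of several fold after fraction 2, thus lay within them. Over the 6 arrays Cyp2b13 had r = 0.225 with Cyp2b9 and 0.530 with Cyp2b19.

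Cyp2b19, the epidermal member, also gave a weak signal. Its probe set 1419731_at read 93.9 and 180.1 in control, 129.8 and 153.6 after fraction 1, and 196.4 and 176.0 after fraction 2. Control replicate 1 was the lowest array and the control arrays spanned both fraction 1 arrays. The change was 0.10 ± 0.33 after fraction 1 (95% interval -0.65 to 0.85; adjusted p = 0.944) and 0.46 after fraction 2 (-0.29 to 1.21; adjusted p = 0.797). Between the fractions it was -0.36 (-1.11 to 0.39; adjusted p = 0.774), with both fraction 1 arrays below both fraction 2 arrays. The summed signal of the 5 tested keratinocyte markers, of 7 listed, ran from 657.2 to 948.3 over the arrays, and none of those tested passed.

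**Figure D2:**
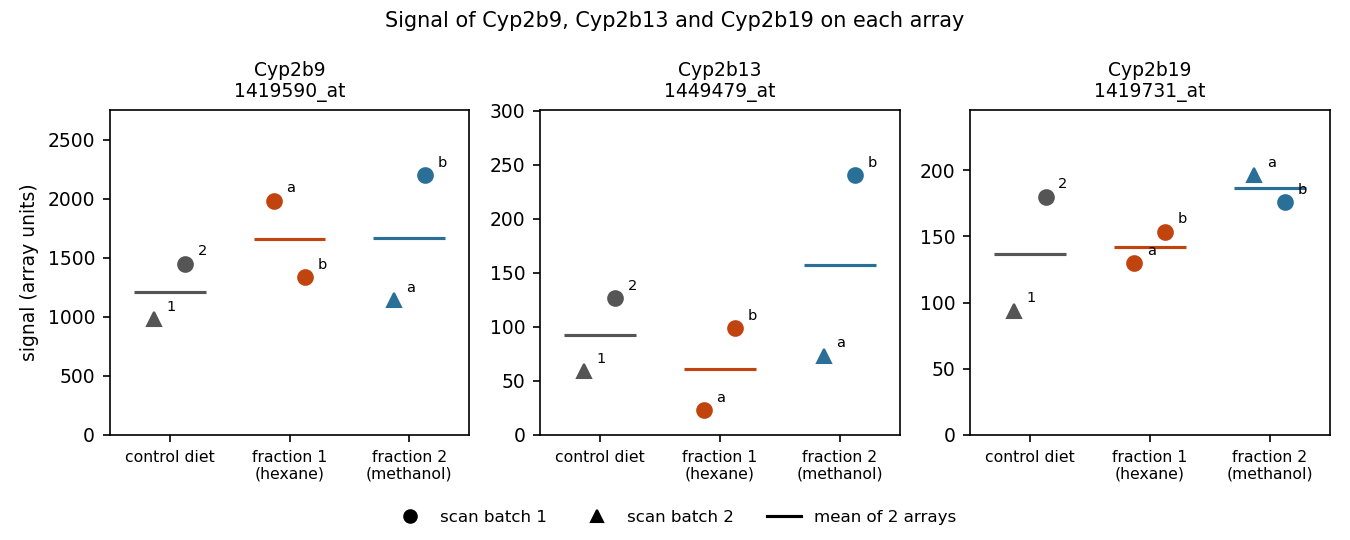
Signal of Cyp2b9, Cyp2b13 and Cyp2b19 on each array, in array units on linear axes from 0, by diet group, with the mean of 2 arrays as a line and triangles for scan batch 2. Both fraction groups of Cyp2b9, Cyp2b13 and Cyp2b19 overlap with control, and the lowest Cyp2b9 signals, 980.3 and 1141.2, are those of scan batch 2.

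Set side by side, the 3 Cyp2b10 probe sets changed by 3.54 to 4.15 after fraction 1 and by 2.18 to 2.86 after fraction 2, and the other 3 genes by -0.63 to 0.44 and by 0.41 to 0.55. Non-overlapping groups were found for 3 of 6 probe sets after fraction 1, 3 of 6 after fraction 2 and 4 of 6 between the fractions. Over all tested probe sets the share with non-overlapping groups was 40.9%, 35.2% and 46.8%, so these counts say little about the Cyp2b genes.

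**Figure D3:**
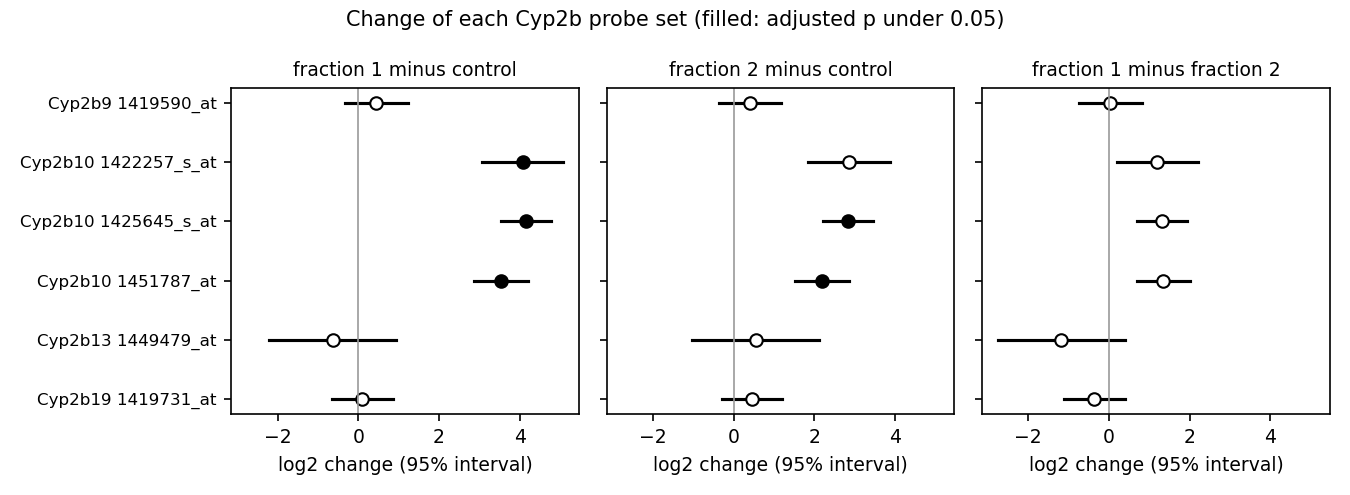
Difference in log2(signal + 16) for each of the 6 Cyp2b probe sets in the 3 comparisons, with 95% intervals from limma as bars and filled points where the adjusted p was under 0.05. The Cyp2b10 points lie at 3.54 to 4.15, 2.18 to 2.86 and 1.20 to 1.35, and the bars of Cyp2b9, Cyp2b13 and Cyp2b19 cross 0 in every comparison.

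The receptors that act on Cyp2b10 were measured in the same arrays. CAR itself (Nr1i3) read 1182.1 and 2428.4 in control, 1505.5 and 2191.3 after fraction 1, and 1875.6 and 1975.7 after fraction 2. PXR (Nr1i2) read 370.2 and 603.2 in control, 529.6 and 705.7 after fraction 1, and 417.0 and 601.7 after fraction 2. The control arrays of Nr1i3 spanned all 4 treated arrays. Its change was 0.10 after fraction 1 (95% interval -0.64 to 0.84; adjusted p = 0.943) and 0.18 after fraction 2 (-0.56 to 0.92; adjusted p = 0.909), and it turned to -0.42 and -0.30 within scan batch 1. That of Nr1i2 was 0.36 (-0.31 to 1.03; adjusted p = 0.688) and 0.08 (-0.59 to 0.75; adjusted p = 0.958). Of 19 tested genes for these receptors, their partners and cofactors, 0 passed in any of the 3 comparisons with limma, and 4, 2 and 2 had an unadjusted p under 0.05 after fraction 1, after fraction 2 and between the fractions. Over all genes 1192, 666 and 733 did. The medians were -0.11 after fraction 1 and -0.18 after fraction 2, against -0.03 and -0.05 over 9209 genes. The arrays measure the RNA of a receptor, not its activity.

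Of 28 other CAR and PXR target genes tested, 9 rose and 0 fell after fraction 1, and 5 rose and 0 fell after fraction 2. Over all 9209 genes 0.738% and 0.119% passed. The 19 and 23 members not called included Cyp2c29 at 0.09 and -0.15, Cyp2c37 at 0.08 and -0.28, and Cyp2c54 at 0.10 and -0.21. Of the 28, 25 stood above 0 after fraction 1 and 20 after fraction 2. The list's medians were 0.77 and 0.43, beside -0.03 and -0.05 for all genes. At an unadjusted p under 0.05 with limma there were 19, 16 and 10 of the 28 after fraction 1, after fraction 2 and between the fractions. Of all 9209 genes 1192, 666 and 733 did so. Between the fractions 0 of the 28 passed, with a median difference of 0.30 beside 0.02 for all genes. Over 17 alternatives the count ran from 2 to 11 after fraction 1, with 4 without replicate a and 3 without replicate b of that fraction. After fraction 2 it ran from 1 to 5, with 1 without either fraction 2 array and 3 without either fraction 1 array.

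Cyp2c55, a P450 of subfamily 2C that foreign compounds induce, read 217.3 and 268.7 in control, 9465.9 and 8471.4 after fraction 1, and 6644.6 and 6039.9 after fraction 2. It rose by 5.12 ± 0.17 (adjusted p = 1.14e-05) and 4.62 ± 0.17 (adjusted p = 2.69e-05), and the fractions differed by 0.50 (95% interval 0.11 to 0.89; adjusted p = 0.531). Slco1a4, an uptake transporter of organic anions, read 1167.6 and 988.6 in control, 4518.7 and 4586.3 after fraction 1, and 3180.3 and 3372.9 after fraction 2. It rose by 2.07 ± 0.16 (adjusted p = 0.00123) and 1.59 ± 0.16 (adjusted p = 0.00977), and the second call held in 11 of 17 alternatives, lost without fraction 2 replicate a (adjusted p = 0.106) or b (adjusted p = 0.196). As for Cyp2b10, both fraction 1 arrays of these genes lay above both fraction 2 arrays.

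The glutathione S-transferases Gstm2 and Gstm3, which conjugate reactive compounds, rose by 2.21 ± 0.23 and 1.89 ± 0.14 after fraction 1 (adjusted p = 0.00857 and 9.52e-04). After fraction 2 they rose by 1.76 ± 0.23 and 1.72 ± 0.14 (adjusted p = 0.0488 and 0.00357). The call of Gstm2 after fraction 2 held in 6 of 17 alternatives. The efflux transporter Abcc3 passed after fraction 2 only, with 1.37 ± 0.18 (adjusted p = 0.0488, held in 3 of 17 alternatives), against 0.97 ± 0.18 after fraction 1 (adjusted p = 0.0644). The difference between the fractions was -0.40 for Abcc3 (95% interval -0.81 to 0.02; adjusted p = 0.628). Cyp3a11, the best known PXR target among mouse P450s, read 13638.2 and 18290.6 in control, 18337.2 and 16945.3 after fraction 1, and 15772.3 and 15547.9 after fraction 2. Its change was 0.16 (95% interval -0.18 to 0.49; adjusted p = 0.734) and -0.01 (-0.35 to 0.32; adjusted p = 0.987).

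**Figure D4:**
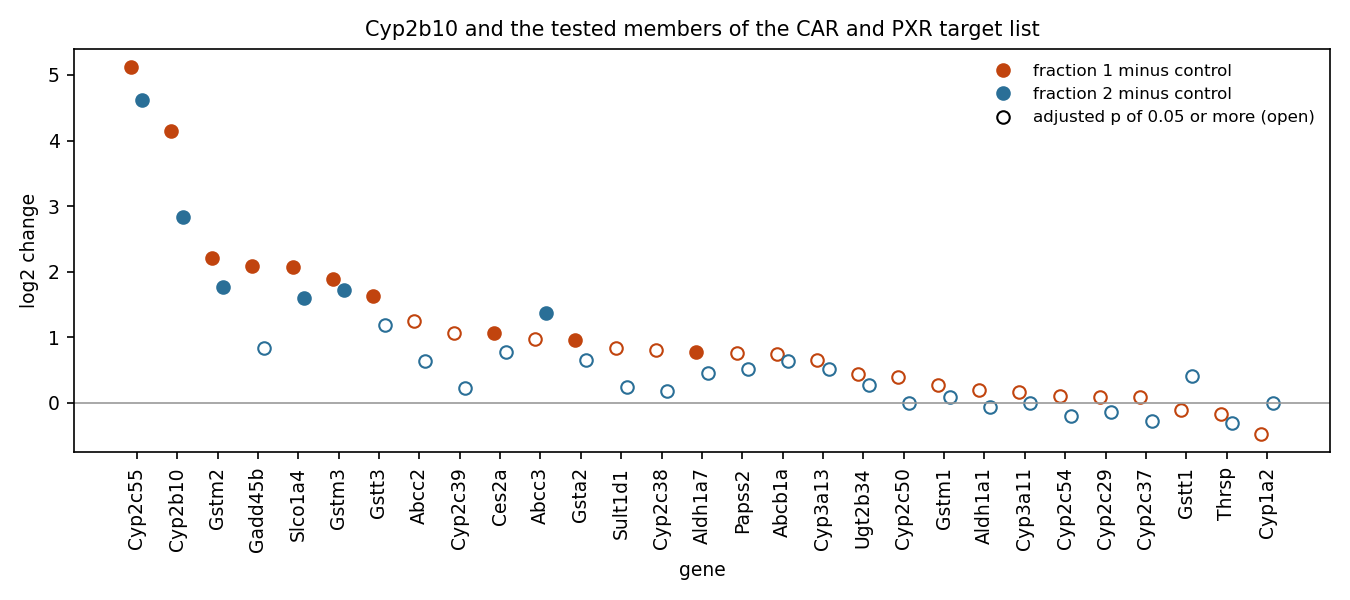
Difference from control in log2(signal + 16) for Cyp2b10 (probe set 1425645_s_at) and the 28 tested genes of the CAR and PXR target list, in order of the change after fraction 1, with open points where the adjusted p was 0.05 or more. Cyp2c55 at 5.12 and 4.62 and Cyp2b10 at 4.15 and 2.83 stand highest, and Cyp3a11 lies at 0.16 and -0.01.

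Among the 16 tested genes of electron supply to P450s and of haem synthesis, breakdown or binding, 1 rose after fraction 1 and 0 after fraction 2. None fell, and of all genes 0.738% and 0.119% passed. At an unadjusted p under 0.05 there were 3 and 2 of the 16, against 1192 and 666 of all 9209 genes. The one was Blvrb, a biliverdin reductase of haem breakdown, at 0.99 ± 0.17 (adjusted p = 0.0498). Its call held in 2 of 17 alternatives and was lost whichever array was left out. Alas1, the first enzyme of haem synthesis and itself a known CAR and PXR target, read 5235.6 and 3230.5 in control, 10287.0 and 8204.5 after fraction 1, and 5029.2 and 3170.2 after fraction 2. Both fraction 1 arrays lay above all 4 others, and fraction 2 overlapped with control. The change was 1.16 ± 0.28 after fraction 1 (95% interval 0.52 to 1.79; adjusted p = 0.128) and -0.04 after fraction 2 (-0.68 to 0.59; adjusted p = 0.978), and between the fractions it was 1.20 (0.56 to 1.83; adjusted p = 0.324).

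Most other P450s were not called. Of 40 tested P450 genes of families 1 to 4 outside Cyp2b, 2 rose and 2 fell after fraction 1, and 2 rose and 0 fell after fraction 2, with medians of 0.02 and -0.11, beside 0.738% and 0.119% of all genes passing. At an unadjusted p under 0.05 there were 15 and 9 of the 40, against 1192 and 666 of all 9209 genes. Besides Cyp2c55, which stands in both lists, Cyp2g1, a P450 of the olfactory mucosa, rose by 1.78 ± 0.20 (adjusted p = 0.0104) and 2.06 ± 0.20 (adjusted p = 0.00918). Cyp2g1 read 243.6 and 253.9 in control, 956.9 and 835.8 after fraction 1, and 1210.9 and 976.5 after fraction 2. Its order was thus the reverse of that of Cyp2b10, with fraction 2 above fraction 1, by a difference that did not pass (-0.28 for fraction 1 minus fraction 2; 95% interval -0.73 to 0.18; adjusted p = 0.731). Cyp2d13 fell by 1.88 after fraction 1 (adjusted p = 0.00857), and stood at -0.58 after fraction 2 (adjusted p = 0.616). Cyp4v3, a fatty acid hydroxylase, fell by 1.11 after fraction 1 with a p at the edge of the threshold, and its call held in 5 of 17 alternatives. Without fraction 1 replicate b neither decrease passed.

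Since Cyp2b9 and Cyp2b13 belong to the sex-biased P450s of mouse liver, lists of other sex-biased liver genes were read beside them. Of 11 tested genes known as higher in female liver, 0 passed in any comparison. The medians were 0.62 after fraction 1, -0.29 after fraction 2 and 0.89 between the fractions, beside -0.03, -0.05 and 0.02 for all genes. Single members ran from -1.14 to 5.46 after fraction 1 and from -1.22 to 0.37 after fraction 2. Between the fractions they ran from -0.05 to 5.1. The highest, 5.46 after fraction 1, was above the change of every Cyp2b10 probe set but did not pass, and its signals on single arrays are not given here. At an unadjusted p under 0.05 there were 4, 1 and 5 of the 11, against 1192, 666 and 733 of all 9209 genes. Of 20 tested genes known as higher in male liver, 10 fell after fraction 1 and 2 after fraction 2, none rose, and the medians were -1.53 and -0.44 beside -0.03 and -0.05 for all genes. Over all 9209 genes 0.402% passed as lower after fraction 1 and 0.0217% after fraction 2. The count of 10 ran from 2 to 10 over 17 alternatives, and was 2 without control replicate 2, 3 without fraction 1 replicate b, and 5 without either fraction 2 array. Hsd3b5, a steroid-metabolizing enzyme, read 4684.7 and 5754.4 in control, 8.2 and 8.3 after fraction 1, and 182.1 and 74.4 after fraction 2. It fell in both comparisons (adjusted p = 6.58e-05 and 0.00119). Its fraction 1 signals lay below the added 16, so that the log2 difference is not a measured size, and it ran from -9.13 to -6.18 over the alternatives. Serpina12, an adipokine, fell after fraction 1 (95% interval -3.50 to -2.50) and fell by 1.75 after fraction 2, the latter call lost whichever array was left out, and Slco1a1, an organic anion transporter, fell by 3.67 after fraction 1. C8b, a complement component, fell by 1.51 after fraction 1.

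Genes with the pattern over the 6 arrays most like that of each member were found by Pearson's r of log2(signal + 16), among 1060 genes that varied enough. For Cyp2b10 they were Ces2a, a carboxylesterase of drug hydrolysis (r = 0.986), Dvl2, a Wnt signalling adaptor (0.982), the haem transporter Slc48a1 (0.972), Slco1a4 (0.970) and Smarcd1, a chromatin remodelling subunit (0.970). Leaving out 1 array, the lowest r of these 5 was 0.944. Of them, Ces2a rose by 1.07 ± 0.12 after fraction 1 (adjusted p = 0.0111) and Slc48a1 by 1.20 ± 0.17 (adjusted p = 0.0266), and Slco1a4 rose as given above. The calls of Ces2a and Slc48a1 held in 12 and 9 of 17 alternatives, with adjusted p up to 0.163 and 0.198, and both were lost without either fraction 1 array. That of Slc48a1 was also lost without control replicate 2 and without either fraction 2 array. Dvl2 and Smarcd1 stood at 1.75 and 1.33 after fraction 1 without passing (adjusted p = 0.0951 and 0.102). Both were dim, with Dvl2 at 30.2 and 34.9 and Smarcd1 at 59.2 and 84.5 in control. They reached the 40th percentile only on the 4 treated arrays, and so passed the filter through the groups where they were high. Ces2a read 8270.2 and 9321.2 in control, 19173.0 and 17675.8 after fraction 1, and 15809.4 and 14421.6 after fraction 2, and stood at 0.78 after fraction 2 (adjusted p = 0.103). With 3 groups of 2 arrays, any gene that follows the order fraction 1, fraction 2, control tends to have a high r.

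The members without a called change had other neighbours. For Cyp2b9 they were Zfp651, Ddr2, Igf1os, Krt79 and Kcnh1, with r from 0.889 to 0.946. Each of these was lowest in control replicate 1, as Cyp2b9 was, and all were dim, with Zfp651 for example at 30.9 and 98.7 in control, 163.4 and 38.9 after fraction 1, and 52.2 and 192.5 after fraction 2. For Cyp2b13 they were Ly6d, Cacna1e, Oas3, Olfr17 and Kat6b, with r from 0.834 to 0.888. All 5 were lowest in fraction 1 replicate a, as Cyp2b13 was, and without that array the r of Olfr17 was 0.603. For Cyp2b19 they were Mrgpra1, Barhl1, Snn, Ms4a7 and Ccl28, with r from 0.881 to 0.926. These 5 were lowest in control replicate 1, without which the r of Ccl28 was 0.479. None of the 15 was a neighbour of Cyp2b10.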

How the data were processed

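The authors deposited a table with a linear signal intensity for every probe set on every array. The summary method is not given in the sources used here. Signals were used as deposited, and 64 control probe sets were left out. Of the others, 20380 had 1 gene symbol in the platform annotation, 691 several and 1555 none, and those with several named no gene. The 4 Cyp2b genes found also matched a RefSeq gene table by Entrez ID. The authors' experiment files gave scan batches and chip lots.

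Values were taken as log2(signal + 16). Tested were probe sets that reached the 40th percentile of their array on at least 2 of 6 arrays. The 3 comparisons were fitted over all 6 arrays with limma 3.58.1 in R 4.3.3 (lmFit, eBayes with a variance trend; 3 residual and 5.43 prior degrees of freedom). P-values are two-sided and Benjamini-Hochberg adjusted over the 14755 probe sets, with a threshold of 0.05. Folds and intervals are on this scale and understate changes of dim probe sets. For a gene with several probe sets, lists used the one with the highest mean log2 value. The number of arrays limits the precision, with a median standard error of 0.25. The fit was tested on simulated data.

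Named were all Cyp2b probe sets, up to 4 members past the threshold per list and comparison, Nr1i3, Nr1i2, Alas1, Cyp3a11, Cyp2c55 and Por (the last not analysed here), and the 5 nearest genes by correlation to each member, with an SD over arrays of at least 0.5. The members and lists were chosen with earlier results of these data known. Motifs were searched on both strands in RefSeq promoter windows. Alternatives were quantile normalization, median centring, pseudocounts of 1 and 64, filters at no percentile and at the 60th, a fit without the variance trend, scan batch, chip lot or replicate letters as a block, only the groups compared, and each array left out. A fit to scan batch 1 alone was chosen after seeing the data. Figures used Python 3.11.15 and matplotlib 3.10.9, and promoter alignments Biopython 1.88.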

Additional observations from a re-analysis of the deposited data

How the results depend on the processing

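For Cyp2b10, the direction of every probe set held in each alternative in all 3 comparisons, and the calls that were lost stand beside the results. Counts over all probe sets moved more. After fraction 1, 105 passed (54 higher, 51 lower), and 48 did with median centring, 27 without a filter, 12 without the variance trend, 39 with only the groups compared, 66 in scan batch 1 alone and 14 to 149 when 1 array was left out. After fraction 2, 16 passed (14 higher, 2 lower), and 10 did without a filter, 2 without the trend, 10 with chip lot and 24 with scan batch as a block, 9 with only the groups compared, 4 in scan batch 1 alone and 3 to 28 when 1 array was left out. Between the fractions 2 passed, 0 with quantile normalization, median centring, a pseudocount of 1, no filter, no trend, scan batch as a block or scan batch 1 alone, 16 with chip lot as a block, and 0 to 11 when 1 array was left out; at an unadjusted p under 0.05, 1187 passed in the fit as reported. With the replicate letters a and b as a block 75 passed between the fractions, 2 of them shared with the fit as reported, and the difference of 1425645_s_at passed (adjusted p = 0.0259). The labels do not say what the letters mean. Replicate b of both fractions was on a chip of lot 3, while the replicates a came from other lots. The differences a minus b of the fractions had r = 0.03 across probe sets. For fraction 2 this difference also holds that of the scan batches, so the r cannot decide whether the letters pair the arrays. Small changes turned sign. Cyp2b9 after fraction 2 ran from -0.06 to 0.88 when 1 array was left out, and between the fractions at -0.05 with median centring, -0.34 and -0.40 with scan batch and chip lot as a block, -0.43 in scan batch 1 alone and -0.43 to 0.51 when 1 array was left out. Cyp2b13 ran from -1.41 to 0.15 after fraction 1 and from -0.22 to 1.31 after fraction 2 when 1 array was left out, and stood at -0.08 after fraction 2 with chip lot as a block. Cyp2b19 after fraction 1 stood at -0.07 and -0.03 with scan batch and chip lot as a block and -0.32 in scan batch 1 alone (-0.32 to 0.52 when 1 array was left out), and after fraction 2 at -0.03 in scan batch 1 alone. The filter at the 60th percentile removed Cyp2b13 and Cyp2b19 and gave no value for them. Nr1i3 after fraction 1 stood at -0.18 and -0.19 with scan batch and chip lot as a block and -0.42 in scan batch 1 alone, and after fraction 2 at -0.30 in scan batch 1 alone. With 1 array left out it ran from -0.42 to 0.61 after fraction 1, from -0.33 to 0.70 after fraction 2 and from -0.35 to 0.19 between the fractions. Nr1i2 after fraction 2 stood at -0.03 with chip lot as a block, 0.00 in scan batch 1 alone and -0.26 to 0.42 when 1 array was left out, and between the fractions at -0.02 with scan batch as a block. Alas1 after fraction 2 stood at 0.07 with median centring, 0.06 with chip lot as a block and -0.39 to 0.30 when 1 array was left out. Cyp3a11 after fraction 1 stood at -0.05 in scan batch 1 alone and ran from -0.05 to 0.37 when 1 array was left out. After fraction 2 it stood at 0.23 with quantile normalization and 0.10 with median centring or chip lot as a block, and reached 0.20 when 1 array was left out. The causes were not tested. A group left with a single array is assumed to vary like the others.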
